A study of Mus musculus with 16 samples.

Results

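The genes described here are 37 protein-coding genes of the chromosome 16 segment that Dp16 mice carry in 3 copies instead of 2. They were taken by symbol from a list of segment genes. The list was meant to leave out genes with neuronal, immune, chromatin, proteostasis, metabolic or vessel roles. Some such genes remain in it, among them Chaf1b and Morc3 (chromatin) and Hlcs (metabolism). The 37 genes share a place in the genome rather than a pathway. Of the 37 symbols, 36 were found as gene names in a count table of 55385 genes, and Dopey2 was found under its present symbol Dop1b through a RefSeq synonym. A second row named Igsf5 with 1 count over all libraries was not used. The segment was taken as GRCm38 chromosome 16, 75540514 to 97962622 (22.4 Mb), and holds 110 further protein-coding genes.

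Polyadenylated RNA from the hippocampus of mice aged 5 months was sequenced in 16 libraries, 4 for each of 4 genotypes. Wild-type mice were C57BL/6J. Dp16 mice model Down syndrome by a duplication of the mouse segment from Lipi to Zbtb21, which matches part, but not all, of the human chromosome that is trisomic in that condition. 5xFAD mice carry human amyloid transgenes with familial Alzheimer disease mutations, driven by the Thy1 promoter mainly in neurons. The cross, 5xFAD-Dp16, carries both changes. Each of the first 3 genotypes had 2 males and 2 females, whereas the cross had males only. Separate animals are not stated for every library, so a p-value reflects the spread between libraries, which may be technical.

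A gene present in 3 copies instead of 2 is expected, as background, to yield 1.5 times the transcript if each copy is transcribed as before. Feedback on transcription or RNA stability can hold a gene below that level, which is called dosage compensation or partial response. Genes needed for housekeeping tasks usually start at promoters rich in CpG dinucleotides, while genes of a single epithelial or muscle cell type often lack them. In bulk tissue such cell-type genes report the few cells that express them, and a change in the number of those cells cannot be told apart from a change in RNA per cell.

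The 37 genes were sorted by the known role of their products. Of these, 12 act in the nucleus, 9 in membrane traffic, glycosylation or metabolism, 9 at the cell surface or outside the cell, and 7 in signalling or in roles that are little known. In the wild-type hippocampus Tmem50b had the highest level of the 37, at 38.8 ± 3.69 RPKM (reads scaled by gene length and by the reads of the library, SD, n = 4). It was followed by Wrb at 20.8 ± 6.94, Cryzl1 at 15.02 ± 4.73, B3galt5 at 11.3 ± 0.936 and Dop1b at 11.2 ± 2.03 RPKM. Wrb and Cryzl1 did not differ beyond their spread, and neither did B3galt5 and Dop1b. Fam3b was at the bottom of this order with no read in any library. The traffic and metabolism genes took the first 6 places of this order, and surface genes took the last 4.

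Promoter sequences were available from RefSeq (build GRCm38.p6) for 27 of the 37 genes, each covering 250 bases before to 50 bases after the annotated start. Those of Tmem50b, C2cd2 and B3galt5 are shown because these genes rose in every analysis tried when all duplicated libraries were compared with all others. That of Kcnj15 is shown beside them as a gene of the same segment that was hardly read in this tissue. Each is written 5′ to 3′ on the gene's own strand, with every CpG dinucleotide in capitals.
Tmem50b, chr16:91597631-91597930, minus strand: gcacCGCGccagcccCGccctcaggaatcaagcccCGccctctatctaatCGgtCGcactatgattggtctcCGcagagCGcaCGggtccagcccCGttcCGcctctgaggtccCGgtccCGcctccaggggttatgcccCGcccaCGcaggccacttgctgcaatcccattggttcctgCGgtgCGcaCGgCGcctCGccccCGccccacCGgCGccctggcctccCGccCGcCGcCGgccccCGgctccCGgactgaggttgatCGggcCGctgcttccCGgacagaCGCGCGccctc
C2cd2, chr16:97922584-97922883, minus strand: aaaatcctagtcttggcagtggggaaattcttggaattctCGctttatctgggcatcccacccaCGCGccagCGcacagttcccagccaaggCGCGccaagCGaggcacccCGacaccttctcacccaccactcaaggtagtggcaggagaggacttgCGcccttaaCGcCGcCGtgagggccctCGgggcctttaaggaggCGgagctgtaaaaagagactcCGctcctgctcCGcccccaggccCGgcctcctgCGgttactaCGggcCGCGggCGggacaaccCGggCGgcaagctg
B3galt5, chr16:96235551-96235850, plus strand: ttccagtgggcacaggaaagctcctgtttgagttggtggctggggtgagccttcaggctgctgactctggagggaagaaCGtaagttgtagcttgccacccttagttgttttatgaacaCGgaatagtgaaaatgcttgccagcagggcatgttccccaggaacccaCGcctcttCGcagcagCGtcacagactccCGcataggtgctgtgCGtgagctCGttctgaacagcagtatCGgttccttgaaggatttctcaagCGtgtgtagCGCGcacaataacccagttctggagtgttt
Kcnj15, chr16:95257308-95257607, plus strand: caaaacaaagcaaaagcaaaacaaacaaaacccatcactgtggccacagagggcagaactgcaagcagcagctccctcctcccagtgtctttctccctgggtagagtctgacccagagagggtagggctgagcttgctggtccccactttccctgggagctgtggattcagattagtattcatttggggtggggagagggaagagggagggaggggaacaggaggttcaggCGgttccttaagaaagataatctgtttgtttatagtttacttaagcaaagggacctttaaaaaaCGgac

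The Tmem50b window held 35 CpG dinucleotides, that of C2cd2 24, that of B3galt5 12 and that of Kcnj15 2. The RefSeq start of C2cd2 lies 39965 bases inside the outermost start of the gene in the GENCODE annotation, so more than 1 start is annotated for it. A window was called CpG-rich when its GC content was over 50% and its CpG count was over 0.6 of that its base composition predicts. Of the 25 windows of genes with enough counts for a test, 19 (76.0%) were CpG-rich, against 33.9% of 27025 mouse promoters of the same length. Neither of the 2 windows of genes with too few counts, those of Kcnj15 and Tmprss2, was CpG-rich. B3galt5 also fell outside the definition although its transcript was abundant.

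Short motifs were looked for on both strands of the same 25 windows. The ETS core CCGGAAG occurred in 8 (32.0%), against 9.12% of all promoters, and the NRF1 core GCGCATGC in 4 (16%), against 2.80%. The 4 with the NRF1 core were Lca5l, Mis18a, Morc3 and Paxbp1. The CCAAT box occurred in 28.0% against 37.9%, and TATAAA in 4.0% against 14.2%. No window held the E-box CACGTG (7.24% of all promoters). None of these motifs contains another. The 25 windows belong to genes with enough counts in this tissue and were more often CpG-rich (76.0% against 33.9% of all promoters). No share among other tested genes or other CpG-rich promoters was taken, so the excess cannot be called particular to these genes. The matches describe letters in a window only.

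Libraries held between 15.8 and 25 M counts (M, mega). Of the 37 genes, 31 had enough counts for the test, and 6 (Kcne1, Ripply3, Sim2, Fam3b, Kcnj15 and Tmprss2) did not. The tissue label was checked against 12 markers of hippocampal excitatory neurons, which summed to 3401 to 9629 CPM (counts scaled to library size) per library. The 4 lowest sums were in wild-type 4, 5xFAD 2, 5xFAD 4 and 5xFAD-Dp16 3. Of these libraries, wild-type 4, 5xFAD 2 and 5xFAD-Dp16 3 had the highest sums of 15 midbrain and hypothalamus markers, at 284.8, 369.7 and 95.1 CPM, against 7.2 to 22.0 in the other 13. 5xFAD 4 had the highest sum of 12 thalamus markers, at 708.8 CPM, against 208.6 to 449.2 in the others. Choroid plexus markers (14 genes) summed to 261 to 459 CPM in 6 libraries, namely wild-type 1 and 4, Dp16 2 and 3, 5xFAD 2 and 5xFAD-Dp16 2, and to 2408 to 9191 CPM in the other 10. Counts of called genes, and values of some genes that moved, are also given without the 4 libraries that are low in hippocampal markers.

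All 31 tested genes had a higher fitted level in the 8 libraries with the duplication than in the 8 without it, averaged over mice with and without the amyloid transgenes. The median difference was 0.55 on the log2 scale, or 1.46-fold. It was 0.54 for the 59 tested genes among the 110 remaining genes of the segment, -0.01 for 370 tested genes of chromosome 16 outside the segment and -0.01 for all 16684 tested genes. Of the 31 genes, 6 passed an adjusted p below 0.05 and rose: Tmem50b, C2cd2, B3galt5, Morc3, Urb1 and Rwdd2b. The background of such calls was 0.21% of all tested genes. A rise with an unadjusted p below 0.05 was found in 22 of the 31, in 53 of the 59 remaining genes and in 339 of all 16684 tested genes. Among the remaining genes of the segment 26 of 59 were called. Without the 4 libraries low in hippocampal markers 10 of the 31 were called, namely Wrb, Vps26c, Cryzl1, Pigp and Rbm11 beside 5 of the 6, with Rwdd2b lost. DESeq2 called all 6 and also Dop1b, Hlcs, Rbm11 and Vps26c. In males alone 3 remained called, Tmem50b, C2cd2 and B3galt5.

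**Figure D1:**
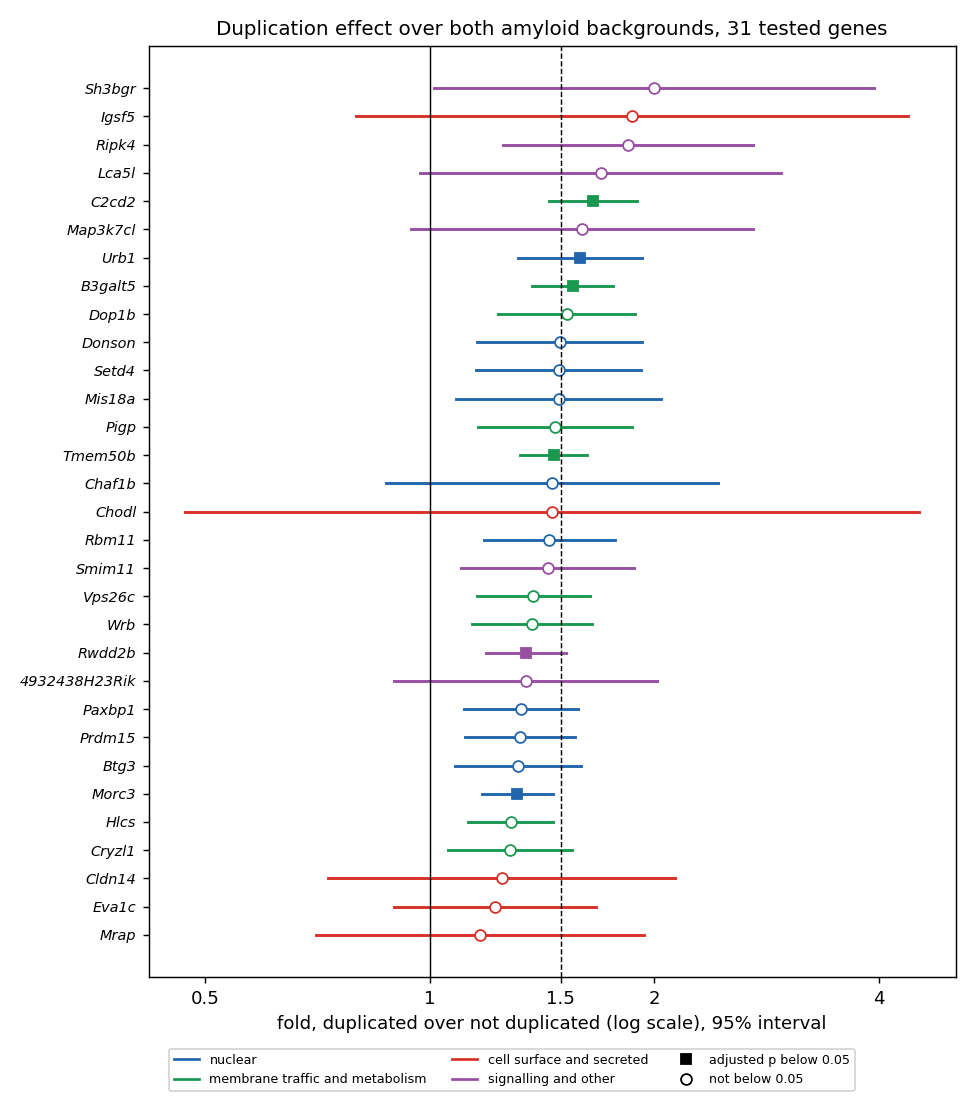
Fold change of each tested gene in the 8 libraries with the duplication against the 8 without it (x axis, log scale), with 95% intervals, genes in rows. Colours give the role of the product, filled squares an adjusted p below 0.05, and the lines mark no change and 1.5-fold. Tmem50b, C2cd2 and B3galt5 have narrow intervals around 1.5-fold, Morc3 and Hlcs lie below it, and the intervals of Chodl and Igsf5 reach from below 1 to above 4.

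The response of each gene was classed by the 95% interval of this averaged fold change. It was called full where the interval lay above 1 and held 1.5-fold, partial where it lay above 1 and below 1.5-fold, and undetermined where it held both 1 and 1.5-fold. Of the 31 genes, 20 were full, 2 were partial (Morc3 and Hlcs) and 9 were undetermined. The full class means only that 1.5-fold was not excluded, so it does not tell a full response from a partial one. Btg3 and Morc3 both rose 1.31-fold, but only the wider interval of Btg3 reached 1.5-fold. No interval lay above 1.5-fold, and none held 1 while excluding 1.5-fold, so no gene was shown to lack a dosage response. Among the remaining genes of the segment, 50 of 59 were full, 3 were partial and 6 undetermined. The 9 undetermined genes were 4932438H23Rik, Chaf1b, Chodl, Cldn14, Eva1c, Igsf5, Lca5l, Map3k7cl and Mrap, whose standard errors ran from 0.21 to 0.77 on the log2 scale. Those of the 20 full genes ran from 0.07 to 0.46.

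Every library with the duplication exceeded every library without it for 5 of the 31 genes, Tmem50b, C2cd2, B3galt5, Urb1 and Rwdd2b. Such separation occurred in 0.18% of all tested genes, and in 20 of the 59 remaining genes of the segment. Within the 4 libraries a genotype, 12 of the 31 were separated in Dp16 against wild-type (1.37% of all tested genes) and 8 in 5xFAD-Dp16 against 5xFAD (1.33%). Among the 59 remaining genes of the segment, 41 and 28 were separated in these comparisons. The 8 include Chaf1b, which had enough counts for the test mainly through 5xFAD-Dp16, so its separation is no independent result.

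**Figure D2:**
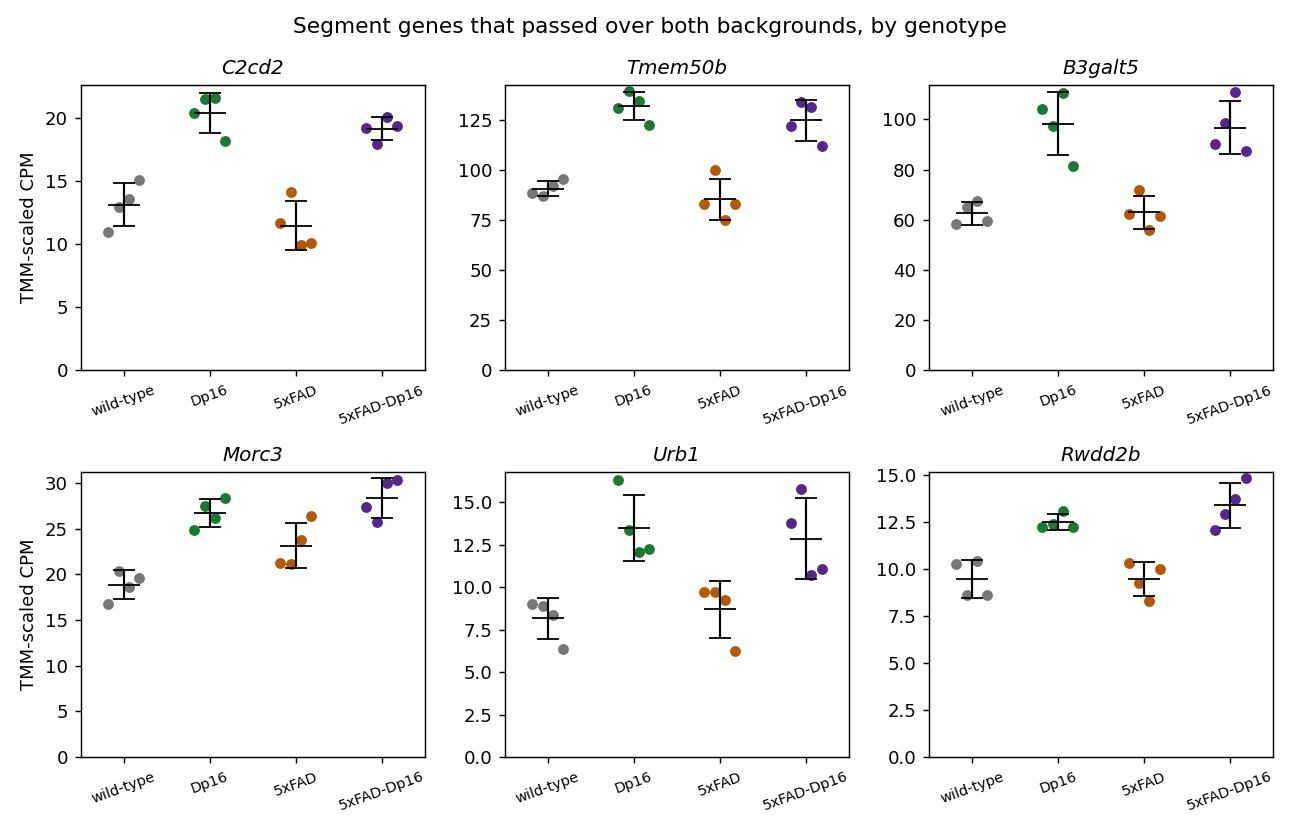
Level in CPM of the 6 genes that passed in the averaged comparison, with 1 panel per gene, 1 point per library, and the mean and SD of each genotype (n = 4). The Dp16 and 5xFAD-Dp16 points lie above all wild-type and 5xFAD points in 5 panels, and for Morc3 the highest 5xFAD library (26.4 CPM) overlaps the lowest Dp16 library (24.8 CPM).

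All 9 traffic and metabolism genes were tested. All 9 rose with an unadjusted p below 0.05 in the averaged comparison, against 339 of all 16684 tested genes. Of the 9, 3 were called, 8 were full and 1 was partial. Their median difference was 0.55 on the log2 scale.

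Tmem50b encodes a small membrane protein of the endoplasmic reticulum and Golgi. Its level in libraries 1 to 4 was 88.8, 87.1, 91.9 and 95.5 CPM in wild-type and 131, 139, 135 and 123 CPM in Dp16. It was 83.2, 99.98, 75.3 and 83.4 CPM in 5xFAD and 122, 134, 132 and 112 CPM in 5xFAD-Dp16. The 8 levels with the duplication began at 112 CPM and the 8 without it ended at 99.98 CPM. The averaged fold was 1.47 (95% interval 1.32 to 1.63, adjusted p = 0.0011, edgeR), close to the copy ratio. The rise was 0.54 ± 0.09 (log2, SE) in Dp16 against wild-type and 0.57 ± 0.10 in 5xFAD-Dp16 against 5xFAD.

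C2cd2 encodes a membrane protein with a lipid-binding C2 domain. It stood at 10.9, 12.9, 13.6 and 15.03 CPM in wild-type and at 20.3, 21.5, 21.5 and 18.1 CPM in Dp16. In 5xFAD it stood at 11.6, 14.1, 9.89 and 10.1 CPM, and in 5xFAD-Dp16 at 19.2, 17.9, 20.1 and 19.4 CPM. No library of either duplicated genotype fell into the range of the others. The averaged fold of 1.65 (95% interval 1.44 to 1.90, adjusted p = 0.0011, edgeR) was the highest among the called genes. C2cd2 shares 86 exon bases with its neighbour Zbtb21 on the same strand, which is 1.11% of its exon length. In 3 of 24 alternatives its interval lay wholly above 1.5-fold.

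B3galt5 encodes a galactosyltransferase that extends glycan chains of lipids and proteins. Its levels were 58.2, 65.2, 67.6 and 59.5 CPM in wild-type and 104, 97.5, 110.3 and 81.4 CPM in Dp16. They were 62.3, 72.0, 55.7 and 61.5 CPM in 5xFAD and 90.1, 98.7, 111 and 87.2 CPM in 5xFAD-Dp16. The lowest duplicated library, Dp16 4, was above the highest library without the duplication, 5xFAD 2. For B3galt5 the averaged fold was 1.56 (95% interval 1.37 to 1.76, adjusted p = 0.0017, edgeR).

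Hlcs, the ligase that attaches biotin to carboxylases, was the other gene of this group with its own class. It was at 13.1, 12.3, 12.5 and 15.8 CPM in wild-type and at 16.4, 17.6, 16.6 and 16.1 CPM in Dp16. In 5xFAD it was at 12.5, 15.8, 11.9 and 10.3 CPM, and in 5xFAD-Dp16 at 16.5, 15.8, 15.3 and 15.9 CPM. Wild-type 4 and 5xFAD 2, both high in midbrain markers, reached the level of the 5xFAD-Dp16 libraries. The averaged fold was 1.28 (95% interval 1.13 to 1.46), which excludes 1.5-fold, but the gene was not called by edgeR (adjusted p = 0.255), while DESeq2 called it (0.0317). In 20 of 24 alternatives Hlcs kept the partial class, and in 4 it was full.

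The other 5 genes of the group were full and not called by edgeR, while DESeq2 called Dop1b (adjusted p = 0.0182) and Vps26c (0.0317). Wrb, a receptor for the insertion of tail-anchored proteins into the endoplasmic reticulum, had an averaged fold of 1.37 (95% interval 1.14 to 1.65). Dop1b, which acts in traffic between Golgi and endosomes, had 1.53 (1.24 to 1.89), and Vps26c, a subunit of the Retriever complex that recycles cargo from endosomes, had 1.38 (1.16 to 1.64). Pigp, part of the enzyme that starts glycosylphosphatidylinositol anchors, had 1.47 (1.16 to 1.87), and Cryzl1, a relative of quinone oxidoreductases, had 1.28 (1.06 to 1.55). Wrb was highest among wild-type libraries in wild-type 4, at 77.0 CPM against 45.04 to 50.9 in the other 3. Dop1b was lowest there, at 59.5 CPM against 88.9 to 108. Cryzl1 had 60.1 CPM in wild-type 4 against 36.2 to 40.0 in the other 3, and 72.9 CPM in 5xFAD 4 against 45.7 to 48.1. Thus genes of this group moved in opposite directions in the library with the lowest hippocampal marker sum, and the part of tissue content in these values was not tested. Pigp shares 326 exon bases (16.4% of its exon length) with the far more abundant Ttc3 on the opposite strand. The Cryzl1 start lies 306 bases from that of Itsn1, which is read in the opposite direction.

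Of the 12 nuclear genes 10 were tested. Their median averaged difference was 0.54 on the log2 scale, and Urb1 and Morc3 were called. A rise with an unadjusted p below 0.05 was found in 9, against 339 of all 16684 tested genes. By class, 8 were full, Morc3 was partial and Chaf1b undetermined.

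Urb1 encodes a nucleolar protein needed to make the large ribosomal subunit. It was at 9.01, 8.90, 8.37 and 6.38 CPM in wild-type and at 16.3, 13.4, 12.1 and 12.3 CPM in Dp16. It was at 9.71, 9.69, 9.22 and 6.21 CPM in 5xFAD and at 13.8, 15.8, 10.7 and 11.1 CPM in 5xFAD-Dp16. The lowest library of its group was wild-type 4, 5xFAD 4 and 5xFAD-Dp16 3 in turn, all low in hippocampal markers, yet the groups did not overlap. On average Urb1 rose 1.59-fold (95% interval 1.31 to 1.93, adjusted p = 0.0460, edgeR). Leaving out single libraries ended the call in 14 of the 16 cases, with folds that stayed positive, and over all 24 alternatives the call held in 7.

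Morc3 encodes an ATPase of nuclear bodies that binds methylated histone tails. It was at 16.7, 20.3, 18.7 and 19.7 CPM in wild-type and at 24.8, 27.5, 26.2 and 28.4 CPM in Dp16. It was at 21.3, 21.2, 23.8 and 26.4 CPM in 5xFAD and at 27.3, 25.7, 30.0 and 30.3 CPM in 5xFAD-Dp16. Dp16 and wild-type did not overlap, whereas 5xFAD 4 exceeded the lowest 5xFAD-Dp16 library. On average Morc3 rose 1.31-fold (95% interval 1.18 to 1.46, adjusted p = 0.0402, edgeR), below the copy ratio. It was 1.42 (1.22 to 1.64) in Dp16 against wild-type and 1.21 (1.04 to 1.42) in 5xFAD-Dp16 against 5xFAD, and the difference between these effects did not pass (log2 -0.22 ± 0.15, adjusted p = 1.00). The call held in 10 of 24 alternatives, and the partial class in 19.

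Btg3, a protein of the antiproliferative BTG family, had the highest level per length among the nuclear genes, at 7.19 ± 0.886 RPKM in wild-type. Its levels were 9.25, 9.82, 10.6 and 10.9 CPM in wild-type and 14.5, 12.7, 12.4 and 15.3 CPM in Dp16, which do not overlap. They were 9.07, 6.24, 10.1 and 14.3 CPM in 5xFAD and 13.9, 11.9, 13.1 and 13.4 CPM in 5xFAD-Dp16, and 5xFAD 4 was above every 5xFAD-Dp16 library. The averaged fold was 1.31 (95% interval 1.08 to 1.59, adjusted p = 0.838, edgeR). Its exons share 695 bases with Cxadr on the opposite strand, 17.3% of the exon length, so part of its counts cannot be assigned with certainty.

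The other 6 tested nuclear genes of the full class had averaged folds of 1.32 to 1.5. Rbm11, a splicing regulator, had 1.45 (95% interval 1.18 to 1.77), and Mis18a, which prepares centromeres for new histone, had 1.49 (1.09 to 2.04). Donson, a factor of the DNA replication machinery, had 1.5 (1.16 to 1.93), and Setd4, a methyltransferase, had 1.49 (1.15 to 1.92). Donson shares 103 exon bases (3.29% of its exon length) with the far more abundant Son on the opposite strand. It shares 287 (9.17%) with an Atp5o entry on the same strand that held 3 counts over all libraries. Paxbp1, which links PAX transcription factors to histone methylation, had 1.33 (1.11 to 1.58), and the zinc finger gene Prdm15 had 1.32 (1.11 to 1.57). None of the 6 was called by edgeR, and DESeq2 called Rbm11 (adjusted p = 0.0352). Mis18a differed most between the backgrounds among them: Dp16 (5.46 to 6.92 CPM) lay above wild-type (3.02 to 3.75 CPM), while 5xFAD ranged from 1.73 to 6.46 CPM and enclosed 3 of the 4 5xFAD-Dp16 libraries. The interaction for Mis18a was -0.56 ± 0.43 on the log2 scale and did not pass (adjusted p = 1.00, edgeR). In 5xFAD-Dp16 against 5xFAD, the log2 difference of Mis18a was 0.30 with all libraries and 0.57 without the 4 low in hippocampal markers, and that of Donson was 0.45 and 0.19.

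Chaf1b, a subunit of the chromatin assembly factor that loads histones behind replication forks, was scarce. It had 30 counts over the 4 wild-type libraries, 29 over Dp16, 27 over 5xFAD and 68 over 5xFAD-Dp16. Chaf1b had enough counts for the test mainly through 5xFAD-Dp16 (24, 18, 14 and 12), against 2 to 13 in the other libraries. Its values for that genotype thus rest on the group that let Chaf1b be tested. All 4 5xFAD-Dp16 libraries (0.631 to 1.36 CPM) were above all 5xFAD libraries (0.296 to 0.503 CPM), while Dp16 (0.112 to 0.612 CPM) enclosed the wild-type range (0.223 to 0.438 CPM). The fold was 2.1 (95% interval 1.01 to 4.33) with the amyloid transgenes and 1.02 (0.508 to 2.04) without them, and the difference of these effects was 1.04 ± 0.68 (log2) with an adjusted p of 1.00.

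The 7 genes of signalling or little-known roles were all tested. Their median averaged difference was 0.68 on the log2 scale, and Rwdd2b was called. Of the 7, 4 rose with an unadjusted p below 0.05, against 339 of all 16684 tested genes. Rwdd2b, a gene with an RWD domain, was at 10.3, 8.6, 10.4 and 8.6 CPM in wild-type and at 12.2, 12.4, 13.1 and 12.2 CPM in Dp16. It was at 10.3, 9.25, 8.27 and 10.01 CPM in 5xFAD and at 12.1, 12.9, 13.7 and 14.8 CPM in 5xFAD-Dp16. The groups did not overlap, but the step between them was small. On average Rwdd2b rose 1.35-fold (95% interval 1.19 to 1.52, adjusted p = 0.0460, edgeR), and the upper bound just reached the full response. The call held in 4 of 24 alternatives. Without the 4 libraries low in hippocampal markers the adjusted p was 0.175 at a log2 difference of 0.43.

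Smim11, a small membrane protein, had the highest level per length in this group, at 7.45 ± 3.08 RPKM in wild-type. It was at 4.43, 7.94, 5.92 and 10.1 CPM in wild-type and at 12.03, 8.34, 8.81 and 11.9 CPM in Dp16. It was at 7.86, 7.80, 8.77 and 11.9 CPM in 5xFAD and at 9.17, 8.28, 15.6 and 14.5 CPM in 5xFAD-Dp16. Wild-type 4, 5xFAD 3 and 5xFAD 4 reached into the range of the duplicated libraries. The averaged fold was 1.44 (95% interval 1.10 to 1.88, adjusted p = 0.855, edgeR).

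Ripk4, a kinase best known from skin, had an averaged fold of 1.85 (95% interval 1.26 to 2.72) at 0.770 to 3.09 CPM. One library stood apart in it: 5xFAD-Dp16 2 had 1.02 CPM and the other 3 of its genotype 2.95 to 3.09 CPM. Over all genotypes Ripk4 had a median of 1.21 CPM in the 6 libraries low in choroid plexus markers and 2.13 CPM in the other 10. The averaged log2 difference without the 4 libraries low in hippocampal markers was 0.65, against 0.89 with all. Sh3bgr, a gene of heart and skeletal muscle, was at 0.487, 1.57, 1.2 and 5.30 CPM in wild-type, and at 1.28, 4.01, 1.62 and 1.68 CPM in 5xFAD. In 5xFAD-Dp16 it was at 2.15, 2.90, 10.5 and 3.58 CPM, so in each of these genotypes the top library was the one highest in midbrain markers. In Dp16, with no such library, it was at 3.32, 1.88, 3.10 and 1.42 CPM. The averaged fold for Sh3bgr was 2.00 (95% interval 1.02 to 3.95), and 11 of 24 alternatives moved it to undetermined. Its log2 difference in Dp16 against wild-type was 0.39 with all libraries and 1.12 without the 4 low in hippocampal markers, and in 5xFAD-Dp16 against 5xFAD it was 1.61 and 1.05.

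Lca5l, a relative of a ciliary gene, had an averaged fold of 1.70 (95% interval 0.971 to 2.96), and Map3k7cl, which resembles the C-terminal part of a kinase, had 1.6 (0.943 to 2.71). Without the 4 libraries low in hippocampal markers, the log2 difference of Map3k7cl went from 0.72 to 1.17 in Dp16 against wild-type and from 0.63 to 0.084 in 5xFAD-Dp16 against 5xFAD. The uncharacterised 4932438H23Rik had 1.35 (0.895 to 2.02). It had an unadjusted p of 0.0472 for the interaction, which gave an adjusted p of 1.00 (edgeR). Its fold was 0.884 (0.502 to 1.55) in Dp16 against wild-type and 2.05 (1.12 to 3.73) in 5xFAD-Dp16 against 5xFAD. The 2 highest libraries, 5xFAD-Dp16 4 at 5.63 CPM and 5xFAD-Dp16 1 at 4.19 CPM, were both high in choroid plexus markers. The median of 4932438H23Rik was 1.76 CPM in the 6 libraries low in those markers and 2.65 CPM in the other 10. The exons of 4932438H23Rik share 729 bases, 25.4% of their length, with an antisense gene.

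Of the 9 surface and secreted genes 5 were tested, none was called or had an unadjusted p below 0.05 in the averaged comparison, and all 5 were undetermined. Eva1c, a receptor for Slit guidance proteins, had the highest level per length among them, at 1.19 ± 0.596 RPKM in wild-type. It was at 2.04, 2.31, 2.14 and 4.53 CPM in wild-type and at 3.04, 2.73, 2.91 and 3.17 CPM in Dp16. It was at 1.53, 4.29, 2.68 and 2.17 CPM in 5xFAD and at 3.17, 2.94, 3.90 and 2.79 CPM in 5xFAD-Dp16. The highest library of wild-type, 5xFAD and 5xFAD-Dp16 was again the one highest in midbrain markers. The averaged fold of Eva1c was 1.22 (95% interval 0.897 to 1.67), a log2 difference of 0.29, which became 0.46 without the 4 libraries low in hippocampal markers.

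Chodl, a C-type lectin of the cell membrane, was at 0.195, 0.175 and 0.134 CPM in wild-type 1 to 3 and at 4.26 CPM in wild-type 4. It was at 0.0562, 0.848, 0.496 and 0.977 CPM in Dp16, so 3 of the 4 Dp16 libraries were above 3 of the 4 wild-type libraries. The fold in Dp16 against wild-type was 0.779 (95% interval 0.178 to 3.42), a log2 difference of -0.36. Without wild-type 4 it was 1.78 (log2), and without the 4 libraries low in hippocampal markers 1.83, so the direction for Chodl rests on that 1 library. The averaged difference of Chodl was 0.55 with all libraries and 1.12 without the 4, and that of Mrap was 0.23 and 0.083. Mrap, an accessory protein of melanocortin receptors, had an averaged fold of 1.17 (0.705 to 1.94) at 0.167 to 0.736 CPM. Cldn14, a tight junction claudin, differed by 0.32 ± 0.36 on the log2 scale (fold interval 0.731 to 2.14). Igsf5, a junctional adhesion molecule, had an averaged fold of 1.87 (0.796 to 4.38) with 44 counts over the 8 libraries without the duplication and 79 over the 8 with it. For Igsf5 and Mrap the medians were 0.284 and 0.287 CPM in the 6 libraries low in choroid plexus markers, and 0.453 and 0.446 CPM in the other 10. The part of choroid plexus content in these values was not tested.

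The 6 genes that could not be tested had between 0 and 119 counts in all. Ripply3, a transcriptional repressor, had 53 counts over the 8 libraries without the duplication and 66 over the 8 with it. Of these, 15 were in wild-type 4 and 25 in 5xFAD-Dp16 3, each the highest library of its genotype and both high in midbrain markers. 5xFAD 2, with the highest midbrain marker sum of all, had 5 counts of Ripply3, the fewest of its genotype. Sim2, a transcription factor of the bHLH-PAS family, had 29 and 40 counts. Kcnj15, an inwardly rectifying potassium channel, had 20 and 25 counts, and Tmprss2, a transmembrane serine protease, had 7 and 13. Kcne1, an auxiliary subunit of potassium channels, had 1 count in wild-type 2 and 6 counts in 5xFAD-Dp16 3 and none elsewhere. Fam3b, a secreted cytokine-like protein, had no count in any library, and a count of 0 allows up to 3 counts per library. At this depth no dosage response could be read from these 6 genes.

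Without the amyloid transgenes, 28 of the 31 tested genes were higher in Dp16 than in wild-type, with a median of 0.49 on the log2 scale (1.40-fold). Of these, 2 rose past the threshold, B3galt5 (0.65 ± 0.11, adjusted p = 0.0439) and Tmem50b (0.54 ± 0.09, adjusted p = 0.0439, edgeR). The background of such calls was 0.0839% of all tested genes. The 3 genes with a lower fitted level were Chodl (-0.36), 4932438H23Rik (-0.18) and Mrap (-0.09), each within its standard error. DESeq2 called 4 of the 31 and the analysis without the 4 libraries low in hippocampal markers 5. In males alone, and with only these 2 groups in the fit, none was called. In the fit over all libraries, 20 rose with an unadjusted p below 0.05, against 250 of all 16684 tested genes. Among the 59 remaining tested genes of the segment, 44 did so.

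With the amyloid transgenes in both groups, all 31 were higher in 5xFAD-Dp16 than in 5xFAD, with a median of 0.53 on the log2 scale (1.45-fold). The 31 include Chaf1b, which was tested mainly through its 5xFAD-Dp16 counts. Only C2cd2 passed, at 0.81 ± 0.14 (adjusted p = 0.0405, edgeR), against a background of 0.0539%. Tmem50b (0.57 ± 0.10) had an adjusted p of 0.0627, and B3galt5 (0.62 ± 0.12) one of 0.141. DESeq2 called these 2 as well, 3 in all. Without the 4 libraries low in hippocampal markers the only call was Tmem50b (adjusted p = 0.0494, edgeR), and C2cd2 had an adjusted p of 0.0925 at a log2 difference of 0.80. In males alone, or with the fit confined to the 2 groups, none was called. This comparison sets 4 male libraries against 2 male and 2 female ones, and the model takes the sex effect from the other genotypes.

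No tested gene passed for the interaction, the duplication effect with the amyloid transgenes minus that without them, by edgeR or DESeq2. The background was 0% of all tested genes. One of the 31, 4932438H23Rik, had an unadjusted p below 0.05, as had 187 genes above 0 and 145 below 0 among all 16684 tested. The median interaction was -0.03 on the log2 scale, with 15 genes above and 16 below 0. For Tmem50b it was 0.03 ± 0.14, for B3galt5 -0.03 ± 0.17 and for C2cd2 0.17 ± 0.18.

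Against wild-type, 5xFAD-Dp16 carries both changes and shares its control group with the Dp16 and 5xFAD comparisons. All 31 genes were higher, with a median of 0.61 (1.53-fold), and 4 rose past the threshold. They were Morc3 (0.58 ± 0.11, adjusted p = 0.0154), B3galt5 (0.63 ± 0.12, 0.0181), Tmem50b (0.48 ± 0.10, 0.0342) and C2cd2 (0.61 ± 0.13, 0.0403, edgeR). The background of calls was 0.983%. DESeq2 called 7, the analysis without the 4 libraries low in hippocampal markers called 10, males alone gave 1, and the fit confined to the 2 groups gave none.

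With the amyloid transgenes alone, differences of single genes ran from -0.67 to 1.44 on the log2 scale. In 5xFAD against wild-type the median was 0.08 on the log2 scale, 20 of 31 were higher, and none was called by edgeR or DESeq2, against a background of 0.971%. Morc3 and Cldn14 had an unadjusted p below 0.05, as had 997 higher and 480 lower genes among all 16684 tested. Morc3 was higher by 0.30 ± 0.10 (adjusted p = 0.329, edgeR), and its means were 18.8 ± 1.58 CPM in wild-type and 23.2 ± 2.47 CPM in 5xFAD. Cldn14 was at 0.146, 0.655, 0.312 and 0.996 CPM in wild-type and at 0.958, 1.23, 1.45 and 1.53 CPM in 5xFAD, and 3 of the 4 5xFAD libraries were above all wild-type ones. Its difference was 1.44 ± 0.51 (adjusted p = 0.363, edgeR). In 5xFAD-Dp16 against Dp16 the median was 0.13, 20 of 31 were higher and none was called by edgeR or DESeq2, against 0.845%. There, 4932438H23Rik, Chaf1b and Sh3bgr had an unadjusted p below 0.05, with differences of 1.11 ± 0.43, 1.17 ± 0.48 and 1.36 ± 0.62. Chaf1b was tested mainly through its 5xFAD-Dp16 counts. Over all 16684 tested genes, 1074 were higher and 355 lower with an unadjusted p below 0.05. In the same libraries the summed level of 12 microglia markers was 513 to 588 CPM without and 882 to 1498 CPM with the amyloid transgenes, and its part in the Morc3 and Cldn14 values was not tested.

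**Figure D3:**
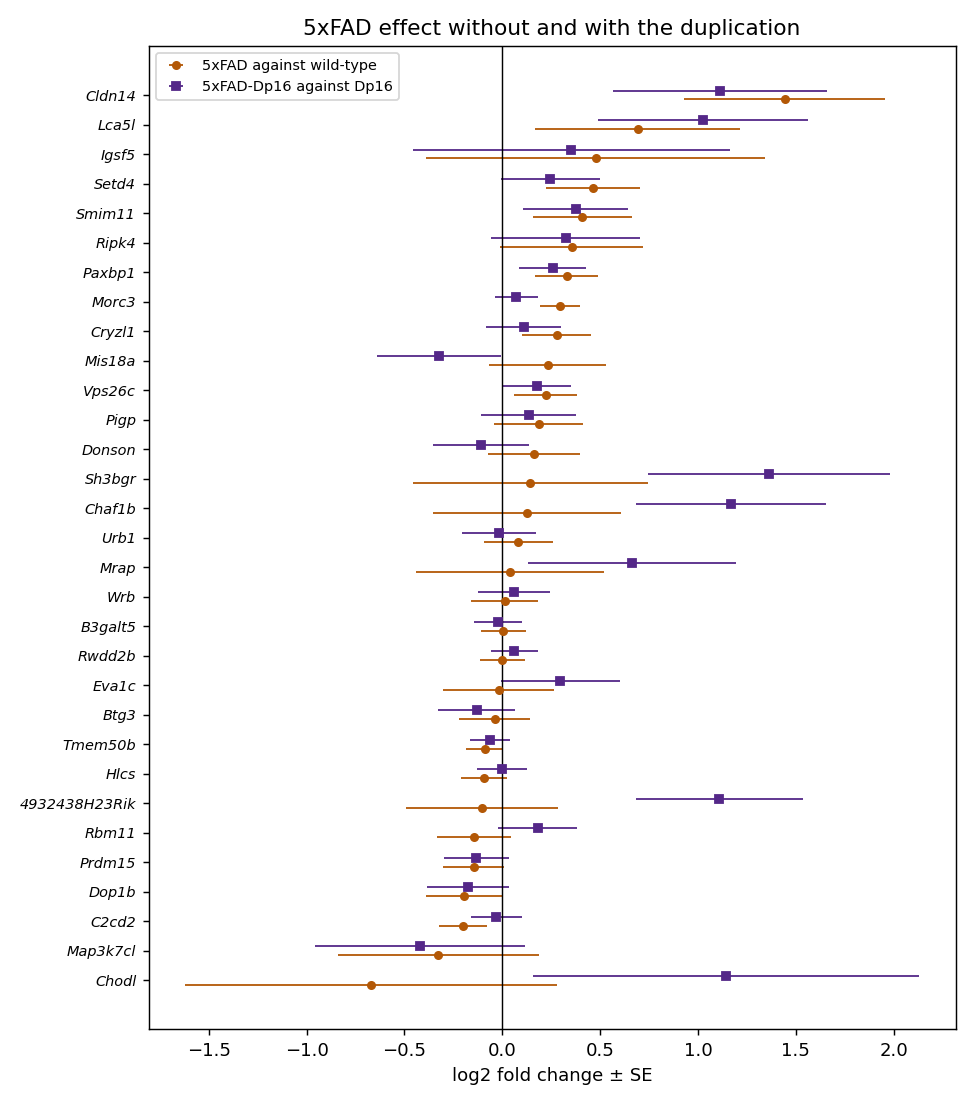
Log2 difference of each tested gene for the amyloid transgenes, without the duplication (5xFAD against wild-type) and with it (5xFAD-Dp16 against Dp16), genes in rows and bars for the standard error. Most points lie within 0.5 of 0, and Cldn14, Lca5l and Chodl lie beyond it in both comparisons and Sh3bgr, Chaf1b, 4932438H23Rik and Mrap in the one with the duplication.

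The tested genes span the segment from end to end. The outermost tested genes, Rbm11 at 0.052 Mb and C2cd2 at 22.4 Mb from the segment start, had averaged folds of 1.45 and 1.65. The genes between 15.2 and 16.8 Mb, from Mis18a to Smim11, ranged from 1.17 (Mrap) to 1.59 (Urb1). From Setd4 at 18.1 Mb to Vps26c at 19.0 Mb Cldn14 had the lowest log2 difference, at 0.32, and Dop1b the highest, at 0.61. From Wrb at 20.6 Mb to Prdm15 at 22.3 Mb folds ran from 1.32 (Prdm15) to 2.00 (Sh3bgr), with 1.56 for B3galt5, 1.70 for Lca5l, 1.85 for Ripk4 and 1.87 for Igsf5. The standard errors of Lca5l, Ripk4, Igsf5 and Sh3bgr were 0.26 to 0.58 on the log2 scale.

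**Figure D4:**
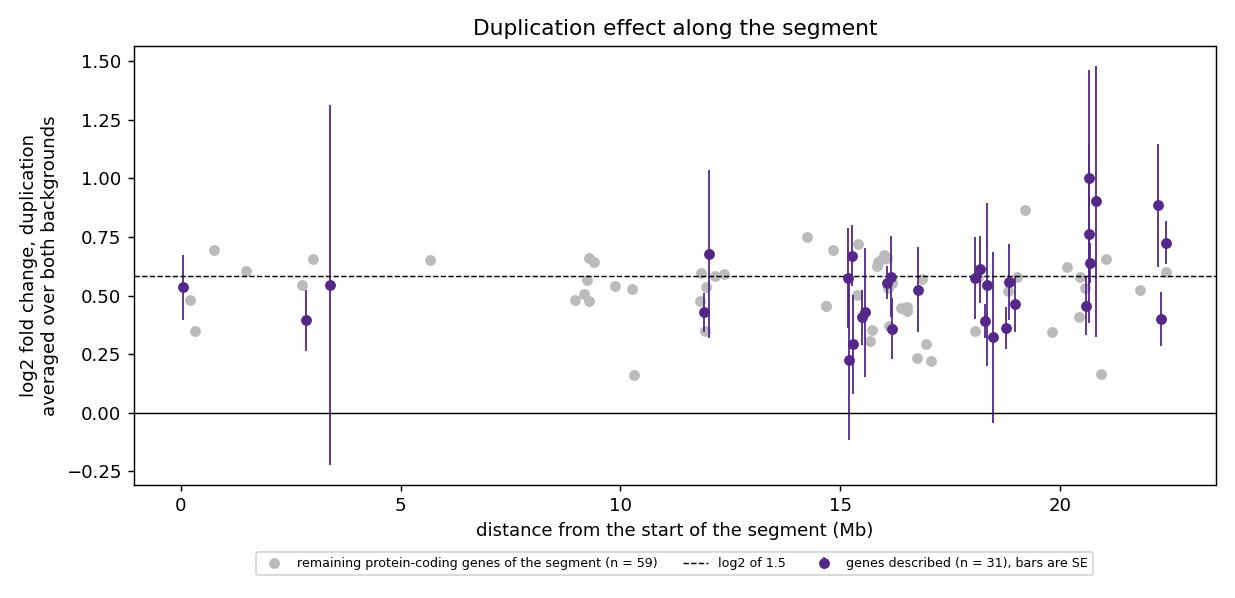
Averaged log2 difference against the distance of each gene's start from the start of the segment in megabases, with standard errors, for the tested genes described here and the 59 remaining tested genes of the segment. Values of both sets scatter around log2 of 1.5 along the whole 22.4 Mb.

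Libraries were also compared by the median over the 31 genes of the log2 level relative to the wild-type mean. Here 0.5 was added to each CPM value. This draws the differences of scarce genes toward 0, so the medians are not the fitted differences given above. This median was -0.25, 0.02, -0.01 and 0.23 in the 4 wild-type libraries. With the duplication its mean was 0.44 ± 0.03 (Dp16) and 0.52 ± 0.14 (5xFAD-Dp16), and with the amyloid transgenes alone 0.08 ± 0.06 (SD, n = 4). The lowest library with the duplication, 5xFAD-Dp16 2 at 0.38, was above the highest without it, wild-type 4. For the 59 remaining genes the mean was 0.55 in Dp16 and 0.55 in 5xFAD-Dp16, and the SDs within genotypes were 0.03 to 0.05. The 31 genes thus varied more between libraries in wild-type, 5xFAD and 5xFAD-Dp16 but not in Dp16, a difference that was not tested. Wild-type 4 was the highest library of its genotype for 20 of the 31 genes and wild-type 1 the lowest for 18. Likewise 5xFAD-Dp16 3 was the highest for 17, and 5xFAD 4 for 14.

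**Figure D5:**
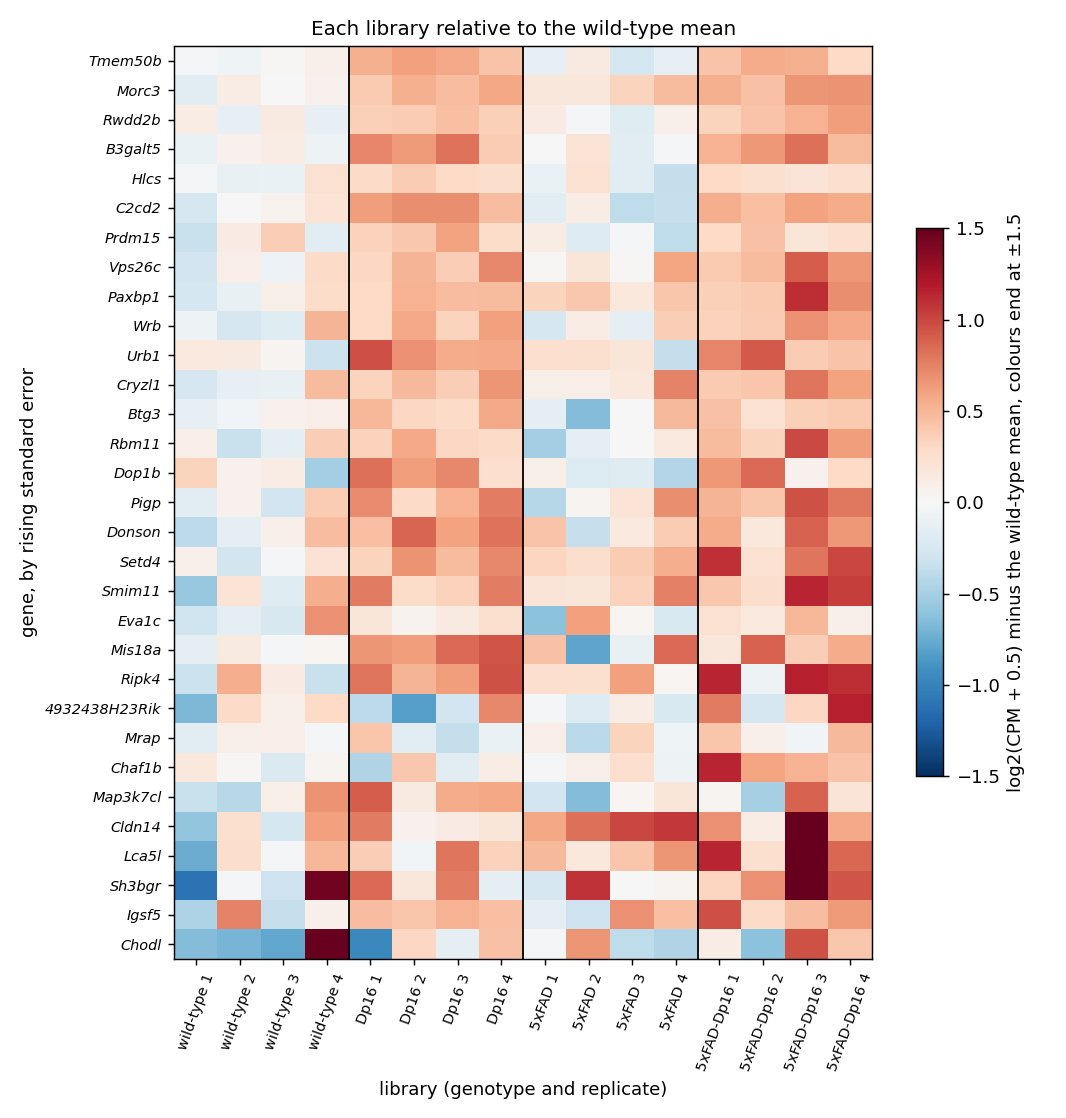
Log2 level (of CPM plus 0.5) of each tested gene in each library relative to its wild-type mean, genes in rows and libraries in columns by genotype. The Dp16 and 5xFAD-Dp16 columns are mostly above 0, and single cells stand out in wild-type 4, 5xFAD 2 and 5xFAD-Dp16 3 for Sh3bgr and in wild-type 4 for Chodl.

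Genes outside the segment whose products work with those of the 37 were taken from 10 lists. They covered the chromatin assembly factor, centromere deposition, DNA replication, ribosome biogenesis, tail-anchored insertion, Retriever and Commander, Golgi-endosome flippase partners, anchor synthesis, biotin enzymes, and the BTG and TOB family. Of 81 such genes found by symbol, 78 were tested, and edgeR called none in any of the 7 comparisons. In the averaged comparison, 26 of the 78 were higher with the duplication, none of them with an unadjusted p below 0.05, and 8 were lower with an unadjusted p below 0.05. Over all 16684 tested genes, 7918 were higher, and 428 were lower with an unadjusted p below 0.05. The smallest p was that of Fbl, a nucleolar methyltransferase of ribosomal RNA, at -0.29 ± 0.07 on the log2 scale (adjusted p = 0.174, edgeR). DESeq2 called only Fbl, at -0.28 with an adjusted p of 0.0181. Mean levels of Fbl were 25.4 CPM (wild-type) and 27.1 CPM (5xFAD) without the duplication, and 20.8 CPM (Dp16) and 21.8 CPM (5xFAD-Dp16) with it. By list, the median was -0.17 for the 14 tested replication genes, 0.02 for 12 ribosome biogenesis genes and -0.11 for 15 Retriever and Commander genes. It was -0.21 for 4 genes of the BTG and TOB family, in which Btg1 (-0.27 ± 0.07) and Btg2 (-0.55 ± 0.19) were lower without passing.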

How the data were processed

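Build GRCm38, HISAT2 2.1.0, HTSeq 0.6.1, SAMtools 1.5, FastQC 0.11.5 and bcl2fastq are named, per the submitters' processing notes. Per the labels' protocols, libraries were strand-specific and read as paired ends. Whether counting used the strand was not given in the sources used here. The authors deposited raw counts for 55385 genes and RPKM values of the same genes, which were used only to order levels between genes. Counts were fitted with edgeR 4.0.16 in R 4.3.3: filterByExpr left 16684 genes, scaling was TMM, and a robust quasi-likelihood model had a term per genotype and for sex over all 16 libraries. The threshold was an adjusted p of 0.05 (Benjamini-Hochberg, over all tested genes). Standard errors and 95% intervals came from the fitted value and its F statistic. CPM values are TMM-scaled. DESeq2 1.42.0 was an alternative, and limma 3.58.1 was loaded with edgeR. In simulated data for the averaged comparison (16495 genes), a 1.5-fold change was recovered in 80% of 50 genes and a smaller one, 1.25-fold, in 10% of 50. There were 10 false calls. The simulation gave genes of like abundance the same spread and held no tissue differences between libraries. It can therefore overstate recovery in the real data.

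The members and all lists were chosen with earlier results of these data known. Every member is named. Members that passed, were partial, had the highest RPKM of their role or had too few counts are given in full. Genes outside the list are named by smallest p or as neighbours. Sequences are RefSeq's. Depth limits precision, and p-values and floors of 3 counts cover no preparation error.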

Additional observations from a re-analysis of the deposited data

Results flagged for a closer look

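In each of the 31 tested genes and 4 genotypes, 124 groups of 4 libraries in all, the highest and the lowest library were compared with the nearest of the other 3 by Dixon's criterion, which marks about 1 group in 20 by chance. It marked 8. In wild-type 4, the library with the lowest hippocampal marker sum, Chodl was at 4.256 CPM against 0.134 to 0.195 in the other 3, Eva1c at 4.528 CPM against 2.04 to 2.31, and Cryzl1 at 60.13 CPM against 36.2 to 40.0. In 5xFAD 4, the library with the highest thalamus marker sum, Cryzl1 was at 72.87 CPM against 45.7 to 48.1, and Urb1 was low at 6.213 CPM against 9.22 to 9.71. In 5xFAD 2, high in midbrain markers, Sh3bgr was at 4.01 CPM against 1.28 to 1.68. Cldn14 was at 1.18 CPM in Dp16 1 against 0.518 to 0.610. Ripk4 was low in 5xFAD-Dp16 2, a library low in choroid plexus markers, at 1.024 CPM against 2.95 to 3.09.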

How the results depend on the processing

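Each result was recomputed under up to 25 alternatives. Counts of called genes under alternatives, here and above, stand without the share of all tested genes called under the same setting. A change in these counts can therefore not be told from a change over all genes. Tmem50b, C2cd2 and B3galt5 were called in the averaged comparison under all 24 that apply to it, with adjusted p up to 0.0259. Of the other 3 called genes, Morc3 was called in 10, Urb1 in 7 and Rwdd2b in 4. For the averaged, Dp16 against wild-type, 5xFAD-Dp16 against 5xFAD and 5xFAD-Dp16 against wild-type comparisons, the genes called were 6, 2, 1 and 4 with all settings as reported. They were 10, 4, 3 and 7 with DESeq2, 12, 5, 5 and 11 with no low-count filter, 3, 0, 0 and 1 in males only, and 10, 5, 1 and 10 without the 4 libraries high in midbrain or thalamus genes. With no sex covariate 3 were called in 5xFAD-Dp16 against 5xFAD, and with the choroid plexus and midbrain sums as covariates (chosen after seeing the data) 2. With only the groups compared, each of the 3 pairwise counts was 0. With no filter 1 gene, Sh3bgr, was called in 5xFAD-Dp16 against Dp16. With the replicate number as a block (replicate block) the counts were 7, 2, 0 and 7. Leaving out each replicate in turn gave 3 to 7, 0 to 2, 0 to 2 and 0 to 6 called genes, and 18 to 23 genes of full class. The numbers do not pair the samples: correlations of deviations in 24 same-number pairs ran from -0.354 to 0.354, 9 were over 0.1, and 3 of 16 libraries correlated best with their own number.

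Signs of single genes were followed only in the averaged, Dp16 against wild-type and 5xFAD-Dp16 against 5xFAD comparisons. In these, signs turned in 5 scarce genes, none of them called (log2 values, with ranges over libraries left out in turn). In the averaged comparison Chodl was -0.23 with no sex covariate, and Mrap was -0.20 in males only and -0.039 (without Dp16 replicate 1) to 0.45. In Dp16 against wild-type, Chodl was 2.03 in males only, 1.83 without the 4 libraries, 0.29 with the covariates and -0.90 (without Dp16 replicate 2) to 1.78 (without wild-type replicate 4). There 4932438H23Rik ranged from -0.63 to 0.013, Mrap from -0.52 to 0.13 and Chaf1b from -0.37 to 0.31, and Chaf1b was -0.010 with the covariates. In 5xFAD-Dp16 against 5xFAD, Cldn14 was -0.082 with no sex covariate, -0.29 with only the groups compared, -0.27 in males only, -0.28 without the 4 libraries and -0.36 (without 5xFAD-Dp16 replicate 3) to 0.42. The cause of these changes was not tested.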
